A study of Mus musculus with 6 samples.

Results

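The 34 genes described here carry long-chain fatty acids into muscle cells and through mitochondrial β-oxidation. They were taken by name: Lpl, Angptl4, Cd36, Slc27a1 and Fabp3 for uptake and carriage, Acsl1, Acsl3, Acot1 and Acot2 for activation and its reversal, Cpt1a, Cpt1b, Cpt2, Slc25a20 and Mlycd for the carnitine shuttle and its control, Acadl, Acadm, Acads, Acadvl and Acad9 for the dehydrogenase step, Hadh, Hadha, Hadhb, Echs1, Decr1 and Acaa2 for the later steps, Etfa, Etfb and Etfdh for electron transfer, Ucp2 and Ucp3, Plin2 and Plin5, and the receptors Ppara and Ppard. All 34 were found among the 20416 genes of the array, with 375 of the 212097 probe sets that the platform annotation gives exactly 1 gene symbol. For each array, the log2 values of a gene's probe sets were reduced to their median, called the gene value here. Testing was limited to genes with a mean gene value above the 30th percentile (7.05), which left out Ucp3 and Ppara and kept 32 members among 14291 genes.

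The series measured RNA from C2C12 cells, an established mouse myoblast line, on 6 arrays. Cells were grown in medium with 10% fetal bovine serum and differentiated into myotubes in 2% horse serum, and myotubes between days 4 and 7 were used. The 3 insulin samples received 100 nM insulin for 48 h in the differentiation medium, which according to the labels served to make the cells insulin resistant, and the 3 controls stayed untreated. The medium of these experiments was renewed every 24 h, and no transgene or deletion is named for the line. The labels call the samples of a group biological replicates, and 25 ng of total RNA per sample was amplified before labelling.

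Long-chain fatty acids are freed from lipoproteins at the vessel wall, cross the plasma membrane with the help of CD36 and fatty acid transport proteins, and are carried in the cytosol by FABP3. After activation to acyl-CoA they enter mitochondria through the carnitine shuttle, whose outer enzyme, carnitine palmitoyltransferase 1, is inhibited by malonyl-CoA and is regarded as the main point of control. In the matrix they are shortened by repeated cycles of dehydrogenation, hydration, dehydrogenation and thiolysis, and PPAR receptors, which bind fatty acids, induce many of the genes concerned.

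Array medians lay between 8.79 and 8.82, and the median change of all genes tested was -0.0028 on the log2 scale, so each change below is relative to the other transcripts. The mean log2 level of 12 myotube genes ran from 12.91 to 13.08 on the control arrays and from 12.71 to 12.75 on the insulin arrays, and 3 of the 12 fell past the test. That of 5 proliferation genes ran from 10.87 to 10.91 and from 11.47 to 11.50, and all 5 rose. That of 8 myoblast genes ran from 9.63 to 9.69 and from 9.76 to 9.82, with 3 of the 7 tested higher and 1 lower. Marker levels of muscle differentiation and cell division thus moved with the groups, and their part in the results below was not tested. Of 5 adipocyte markers tested 0 passed in the limma fit, 1 of them having an unadjusted p under 0.05. Their list stood at 7.27 to 7.52 in controls and 7.33 to 7.34 with insulin, and Adipoq, which defines adipocytes, was too dim to test.

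Insulin-treated myotubes had lower transcript levels of 4 members and higher levels of 3. The fatty acid translocase Cd36, the cytosolic carrier Fabp3, the outer carnitine palmitoyltransferase Cpt1a and the mitochondrial carrier Ucp2 fell. By gene value they fell to between 67.5% and 73.5% of the control level. The transport protein Slc27a1, the mitochondrial acyl-CoA thioesterase Acot2 and the secreted lipase inhibitor Angptl4 rose, by 1.19 to 1.42-fold. None of the 14 matrix enzymes and electron transfer genes passed. In limma with Benjamini-Hochberg adjustment over all genes tested, 7 of 32 members (21.9%) passed an adjusted p of 0.05, against 15.9% of all genes. By direction, 3 members were higher, against 9.56% of all genes, and 4 lower, against 6.35%. Without control 2, insulin 2 or insulin 3 the count of higher members was 1, where 5.66%, 4.64% and 4.94% of all genes were higher. Array quality weights brought the count of lower members to 10, and the share of all genes that were lower to 16.8%. The median change of the 32 was -0.03. In a whole dish, fewer cells of a type and less RNA per cell cannot be told apart.

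**Figure D1:**
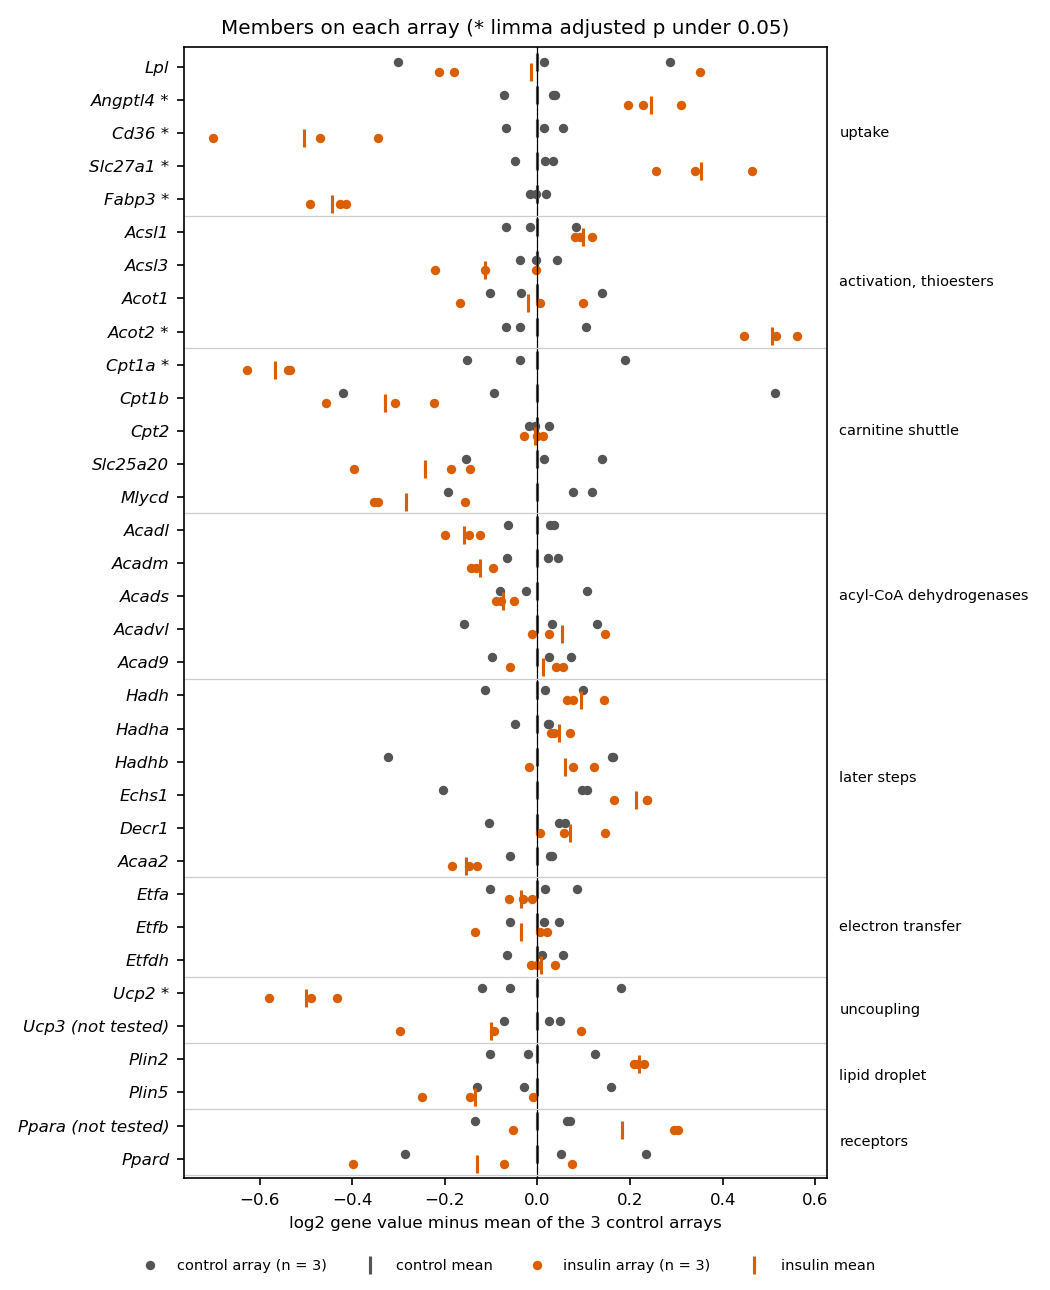
Log2 gene value of each member on each array minus the mean of its 3 control arrays, ordered by step of the pathway, with grey points for controls, orange points for insulin, ticks for group means and an asterisk where the limma adjusted p was under 0.05. The insulin points of Cd36, Fabp3, Cpt1a and Ucp2 lie wholly left of the controls, while those of Cpt2, Etfb and Etfdh overlap with them.

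The sequence just before the start of each gene that fell is shown, since these 4 members moved the same way. The windows are the 250 bases before the annotated start in RefSeq, build GRCm38.p6: chr5:17835897-17836146 on the minus strand for Cd36, chr4:130308488-130308737 on the plus strand for Fabp3, chr19:3323051-3323300 on the plus strand for Cpt1a and chr7:100493108-100493357 on the plus strand for Ucp2. Each runs 5′ to 3′ toward the gene, and capitals mark any match to the motifs described next.
Cd36: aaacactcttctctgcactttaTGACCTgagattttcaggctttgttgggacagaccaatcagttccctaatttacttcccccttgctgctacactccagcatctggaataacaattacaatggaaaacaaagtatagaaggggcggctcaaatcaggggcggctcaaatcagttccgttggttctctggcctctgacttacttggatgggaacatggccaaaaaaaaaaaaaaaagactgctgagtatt
Fabp3: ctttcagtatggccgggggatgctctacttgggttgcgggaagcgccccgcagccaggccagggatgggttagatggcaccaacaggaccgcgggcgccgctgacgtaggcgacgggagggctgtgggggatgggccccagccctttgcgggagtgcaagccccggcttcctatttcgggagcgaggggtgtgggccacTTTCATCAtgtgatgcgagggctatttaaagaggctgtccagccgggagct
Cpt1a: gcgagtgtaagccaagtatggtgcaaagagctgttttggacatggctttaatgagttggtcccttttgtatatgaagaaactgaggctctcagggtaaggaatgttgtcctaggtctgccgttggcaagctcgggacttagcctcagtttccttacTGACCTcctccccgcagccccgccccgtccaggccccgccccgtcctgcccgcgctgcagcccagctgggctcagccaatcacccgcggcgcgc
Ucp2: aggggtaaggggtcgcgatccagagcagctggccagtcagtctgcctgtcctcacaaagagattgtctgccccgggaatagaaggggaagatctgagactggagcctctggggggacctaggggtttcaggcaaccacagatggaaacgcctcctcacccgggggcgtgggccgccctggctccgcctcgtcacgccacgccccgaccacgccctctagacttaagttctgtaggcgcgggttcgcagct

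Of the 34 members, 28 had such windows, 32 in all, and 4 motifs were searched on both strands. The nuclear receptor core AGGTCA was present in 8 of the 32 windows (25.0%) and in 14.0% of all 32851 windows. In Cd36 it began 228 bases before the start and in Cpt1a 94 bases before, in both as the reverse complement TGACCT. The other windows with it belonged to Acadm, Acadvl, Echs1, Plin2, Plin5 and Ucp3. Of these, Ucp3 was too dim to test and the others did not pass. The PPAR direct repeat, which holds that core 2 times with 1 base between, was in 0 of the 32 and in 0.0335% of all windows. The FoxO motif GTAAACA was also in 0 of the 32, against 3.17% of all windows. The ATF4 element TGATGNAA was in 2 (6.25%, against 3.45% of all windows), those of Echs1 and Fabp3, in Fabp3 51 bases before the start. The Ucp2 window held none of the 4 motifs. A match here describes letters in a short window and no binding.

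Among the uptake genes, 4 of 5 passed, 2 in each direction. CD36 binds long-chain fatty acids at the surface of muscle cells and aids their entry. Cd36 stood at 11.07, 10.94 and 11.02 on control arrays 1 to 3 and at 10.67, 10.31 and 10.54 on insulin arrays 1 to 3. Every insulin array lay below every control array, with insulin 2 the lowest. The change was -0.50 ± 0.10 (SE; 95% interval -0.73 to -0.28; adjusted p = 0.0121), or 70.5% of control. All 19 of its probe sets were lower with insulin, 9 of them past the test across probe sets. The 18 tested changes ran from -1.10 (probe set 10528210, adjusted p = 0.249) to -0.31 (10528218, adjusted p = 0.195).

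FABP3 is the fatty acid binding protein of heart and skeletal muscle. Fabp3 had values of 11.83, 11.87 and 11.84 in controls and 11.42, 11.43 and 11.36 with insulin. The groups were far apart for their small spread, with SDs of 0.02 and 0.04. The change was -0.44 ± 0.06 (adjusted p = 0.00329), or 73.5% of control. Its 6 probe sets were all lower and 5 passed, from -0.53 (10508615) to -0.23 (10371503). The last, which was the brightest, overlapped between groups, and a gene value taken from it alone lost the call (adjusted p = 0.234). Its identifier and that of 10371504 lie outside the consecutive run of the other 4, and positions of the probe sets were not used here.

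Slc27a1 encodes FATP1, a transport protein with acyl-CoA synthetase activity that is known to move to the surface of fat and muscle cells under insulin. Its values were 10.00, 9.98 and 9.92 in controls and 10.22, 10.43 and 10.31 with insulin. All insulin arrays were above all controls. The rise was 0.35 ± 0.07 (95% interval 0.18 to 0.52; adjusted p = 0.0167), or 1.28-fold. It missed the threshold without control 2 (0.0547), insulin 2 (0.0669) or insulin 3 (0.0595), while the change itself stayed between 0.30 and 0.40 with 1 array left out. Of 15 probe sets 12 were higher and 5 passed, led by 10572655 at 0.69. Probe set 10572650 went the other way, at -0.67, and differed from the rest of its gene by -1.02 (limma diffSplice, adjusted p = 7.0e-05). Its values overlapped between groups, with insulin 1 among the controls.

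Lipoprotein lipase, Lpl, frees fatty acids from triglycerides, and ANGPTL4 is a secreted protein that inactivates it and is induced by fatty acids through PPARs. Angptl4 stood at 9.21, 9.32 and 9.33 in controls and at 9.51, 9.48 and 9.60 with insulin. The groups did not overlap, but the gap between the highest control and the lowest insulin array was small. The rise was 0.24 ± 0.07 (adjusted p = 0.0453), or 1.19-fold. Only 5 of its 9 probe sets were higher, from -0.31 (10450048) to 0.46 (10450042) over the 9, and none passed by limma, although the groups were separate in 5. The call was lost under 12 of 15 alternatives, with adjusted p from 0.0115 to 0.258. Lpl had values of 10.39, 9.81 and 10.12 in controls and 10.46, 9.90 and 9.93 with insulin. These overlapped fully, and the change of -0.01 had a 95% interval of -0.44 to 0.41.

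**Figure D2:**
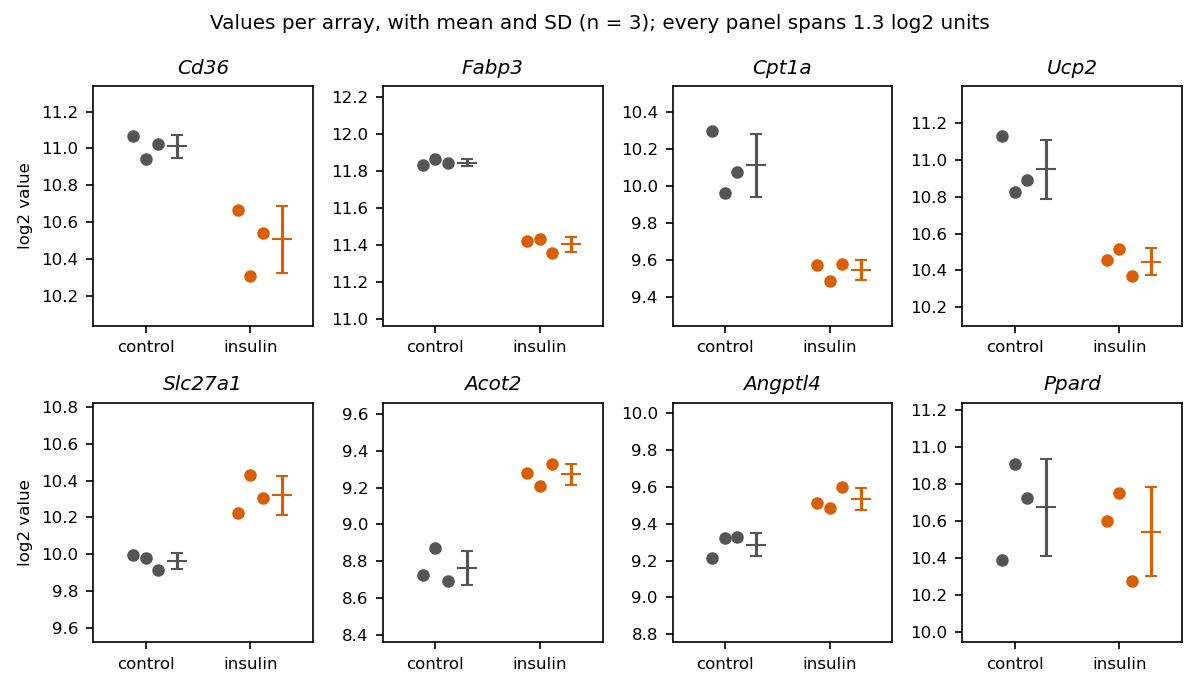
Log2 gene values on the 3 control and 3 insulin arrays for the 7 members past the limma threshold and for Ppard, with mean and SD; every panel spans the same range of log2 units. The groups are apart in the first 7 panels, with the largest differences of means for Cpt1a and Acot2, and mixed for Ppard.

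Acyl-CoA synthetases trap fatty acids in the cell as acyl-CoA, and thioesterases undo that step. The synthetases did not pass: Acsl1, the form prominent in oxidative tissue, changed by 0.10 ± 0.07 (adjusted p = 0.377) and Acsl3, the form found on lipid droplets and the endoplasmic reticulum, by -0.11 ± 0.07 (adjusted p = 0.365). Their probe sets nonetheless leaned opposite ways, 19 of 22 higher for Acsl1 and 13 of 14 lower for Acsl3. In Acsl1, probe set 10571669 went against most of the others at -0.51, a difference of -0.66 from the rest (diffSplice, adjusted p = 0.0331). Its values were 9.91, 8.71 and 10.27 in controls and 9.44, 8.43 and 9.47 with insulin, lowest by far on control 2 and insulin 2. They overlapped between groups, and the probe set's own change did not pass (SE 0.45, limma adjusted p = 0.548). The highest was 10571662 at 0.32. Over all members, diffSplice called only 10571669 and the probe set of Slc27a1 named above. These were 2 of the 346 member probe sets tested, where 0.779% of all probe sets were called. Leaving out control 2 gave 7 such probe sets, and leaving out insulin 1, 2 or 3 gave 6, 1 and 3, where 1.53%, 0.869%, 0.213% and 0.349% of all probe sets were called.

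Acot2, the mitochondrial thioesterase, had the steepest rise among the members. It stood at 8.73, 8.87 and 8.70 in controls and at 9.28, 9.21 and 9.33 with insulin. No array overlapped, and the spread within each group was small. The rise was 0.51 ± 0.07 (adjusted p = 0.00400), or 1.42-fold, and rests on 2 probe sets. Probe set 10397147 went from 10.30 to 11.24, a rise of 0.95 (adjusted p = 0.00574), and 10397146, too dim to test, changed by 0.07. The gene value lies midway between them, so its rise is smaller than that of the bright probe set. Its cytosolic neighbour Acot1, a close paralog, changed by -0.02 ± 0.09 over 4 probe sets (adjusted p = 0.909), and cross-hybridization between these similar transcripts cannot be seen from the values. The difference in change, Acot1 minus Acot2, was -0.53 with no overlap between groups (exact permutation test, two-sided, p = 0.1, the smallest 3 against 3 arrays allow).

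The largest fall of a gene value was in the carnitine shuttle. CPT1A is the liver-type outer enzyme and CPT1B the muscle type, and both hand the acyl group to carnitine. Cpt1a had values of 10.30, 9.96 and 10.07 in controls and 9.57, 9.48 and 9.58 with insulin. The insulin arrays lay close together and below the whole control range. The change was -0.57 ± 0.09 (95% interval -0.78 to -0.35; adjusted p = 0.00673), or 67.5% of control. All 19 probe sets were lower, 8 past the test, from -0.59 (10460161) to -0.20 (10460172). Their median change was -0.44, smaller than in Cd36 (-0.47) and Fabp3 (-0.45).

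Cpt1b stood at 8.09, 7.15 and 7.48 in controls and at 7.12, 7.26 and 7.35 with insulin. Control 1 was high and control 3 lay just above the insulin arrays, while control 2 lay among them. Its change of -0.33 ± 0.21 (adjusted p = 0.337) rests on 2 probe sets, since 18 more carry several gene symbols and were left out. Of the 2, 10431584 changed by -0.05 (limma adjusted p = 0.874). The other, 10431576, was too dim to test and changed by -0.61, with control 1 at 8.17 and the other controls at 6.76 and 6.89. By gene value, Cpt1a fell further than Cpt1b by 0.24 with overlapping groups (exact p = 0.4).

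The other members of the shuttle did not pass, and their intervals differ in what they allow. Cpt2, the inner enzyme, was almost level at 10.59 in both groups, with a change of -0.01 and a 95% interval of -0.14 to 0.13. Slc25a20, the carnitine-acylcarnitine translocase, changed by -0.24 ± 0.10 (adjusted p = 0.148), with all 10 probe sets lower. Mlycd, which degrades the CPT1 inhibitor malonyl-CoA, had values of 9.27, 9.58 and 9.53 in controls and 9.11, 9.30 and 9.11 with insulin. Only insulin 2 reached into the control range, just above control 1. Its change was -0.28 ± 0.10 (adjusted p = 0.0964), and it passed in 5 of 15 alternatives.

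Among the 14 genes of the matrix enzymes and electron transfer none passed. Limma called 0 of them, with 2 at an unadjusted p under 0.05, and 0 of their 165 probe sets, with 12 at that level. Over the array, 15.9% of genes were called at the adjusted threshold, and 3.95% of probe sets were higher and 1.71% lower. Shares of the array at the unadjusted level are not given here, so the 2 and the 12 cannot be read as few or many. Changes of the 14 genes ran from -0.16 to 0.21, and every 95% interval lay within -0.31 to 0.43. Their mean level over the 14 was 11.60, 11.73 and 11.75 on the control arrays and 11.67, 11.70 and 11.72 on the insulin arrays. The insulin arrays fell inside the control range, of which control 1 was the low end.

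Within this group the dehydrogenases of long and medium chains, Acadl at -0.16 (adjusted p = 0.145) and Acadm at -0.12 (adjusted p = 0.237), lay wholly lower on the insulin arrays. So did Acaa2, the last enzyme of the cycle, at -0.15 (adjusted p = 0.143), with 9 of 9 probe sets lower. Echs1, the short-chain enoyl-CoA hydratase, lay wholly higher at 0.21 (adjusted p = 0.172), with 8 of 8 probe sets higher, and so did Hadha, the large subunit of the trifunctional protein, at 0.05 (adjusted p = 0.673). The Hadha probe sets leaned against that gene value, with 15 of 21 lower. In all, 13 of 32 members had groups that did not overlap, against 35.7% of all genes tested. With array quality weights Acadl (-0.18, adjusted p = 0.0167), Acadm (-0.14, 0.0386), Acads (-0.16, 0.0441) and Acaa2 (-0.18, 0.0171) passed.

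For the remaining enzymes the groups overlapped. The short-chain dehydrogenase Acads changed by -0.07, the very-long-chain enzyme Acadvl by 0.05 and Acad9, which also serves complex I assembly, by 0.01. The 3-hydroxyacyl-CoA dehydrogenase Hadh changed by 0.09, the small trifunctional subunit Hadhb by 0.06, and Decr1, which handles unsaturated chains, by 0.07. The electron transfer flavoprotein subunits Etfa and Etfb both changed by -0.04, and their ubiquinone oxidoreductase Etfdh by 0.01. All adjusted p-values of these 9 were 0.448 or more. Probe sets leaned higher in Hadh (8 of 8), Decr1 (11 of 12) and Acad9 (19 of 20), and lower in Acads (9 of 10) and Etfb (5 of 6). The median change of the Acad9 probe sets was 0.16, against 0.01 for its gene value. In Acadvl 8 of 11 were lower, against the sign of its gene value. They were split in Hadhb with 9 of 16 higher, Etfa with 4 of 9 and Etfdh with 7 of 14.

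**Figure D3:**
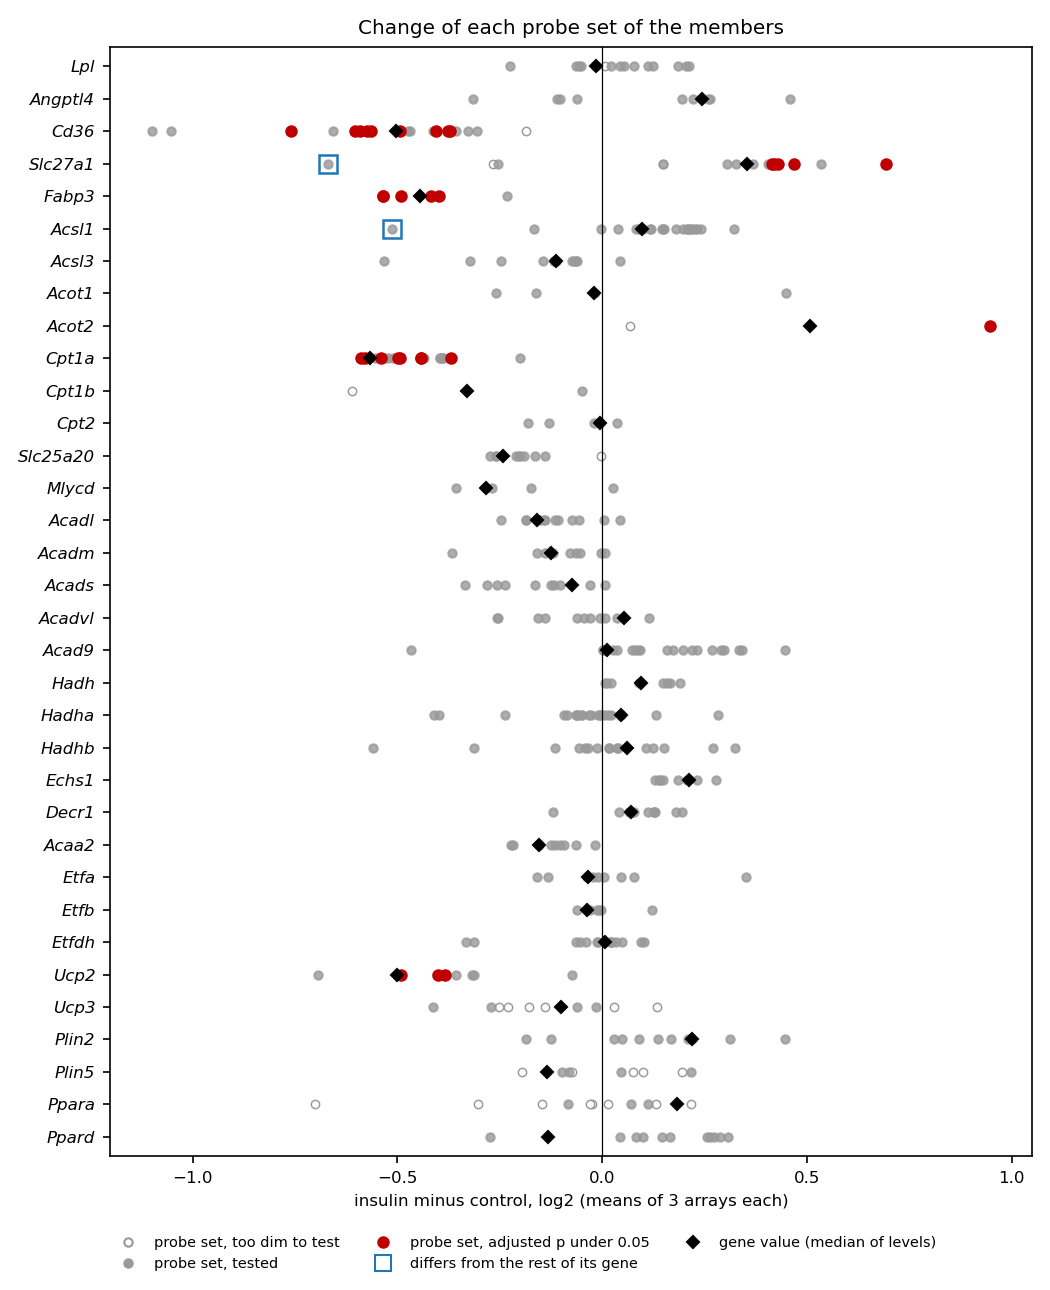
Insulin minus control, in log2 units, for each of the 375 probe sets of the members, with tested probe sets filled, those past the limma threshold red, those differing from the rest of their gene boxed and the gene value as a diamond. Red points fall left of 0 in Cd36, Fabp3, Cpt1a and Ucp2 and right of 0 in Slc27a1 and Acot2, and the diamond of Ppard lies apart from most of its points.

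Across the probe sets, 348 of 375 were bright enough to test. Of these, 25 (7.18%) were lower, against 1.71% of all probe sets tested, and all 25 belonged to Cd36, Cpt1a, Fabp3 and Ucp2, with 9, 8, 5 and 3 each. The 6 that were higher (1.72%, against 3.95% of all probe sets) were 5 of Slc27a1 and 1 of Acot2. These counts depended on single arrays: without control 2 or any 1 insulin array 0 were lower by limma, with 43 to 53 at an unadjusted p under 0.05, and 1 was higher. No share of all probe sets at that unadjusted level is given here to set beside the 43 to 53. Without control 1 the counts were 12 lower and 3 higher, without control 3 they were 13 and 4, and without a filter on dim probe sets 4 and 1. Calls over the whole array moved as well, to between 0.0882% and 1.32% of probe sets lower when 1 array was left out. Probe sets of 1 gene share its RNA and are no replicates of the condition.

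Ucp2 and Ucp3 are carriers of the mitochondrial inner membrane that are induced by fatty acids in many settings. Ucp2 had values of 11.13, 10.83 and 10.89 in controls and 10.46, 10.52 and 10.37 with insulin. Every insulin array lay below the controls, of which control 1 was highest. The change was -0.50 ± 0.09 (95% interval -0.71 to -0.29; adjusted p = 0.0101), or 70.7% of control. All 11 probe sets were lower and 3 passed, over a range from -0.69 (10555398) to -0.07 (10555400). Their median change was -0.40, smaller than that of the gene value. On control 1, the highest control, and on insulin 3, the lowest insulin array, the gene value was that of 10555398. This probe set ran from 9.48 to 11.13 over the controls and from 9.13 to 10.37 with insulin. A gene value taken from the brightest probe set alone, 10555395, missed the threshold (-0.31, limma adjusted p = 0.0541). In the test across probe sets the limma adjusted p of 10555395 was 0.109. Ucp3, the muscle form, had a gene value too dim to test, at 6.90 ± 0.06 in controls and 6.80 ± 0.20 with insulin (SD, n = 3). Of its 10 probe sets 4 were tested, all 4 lower (-0.41 to -0.02) and none past the test. By gene value, the difference in change, Ucp2 minus Ucp3, was -0.40 without overlap (exact p = 0.1).

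Perilipins coat lipid droplets. Plin2, the general coat protein, stood at 12.49, 12.58 and 12.72 in controls and at 12.81, 12.81 and 12.83 with insulin. The insulin arrays lay together just above the highest control. The change of 0.22 ± 0.07 missed the threshold (adjusted p = 0.0885). Plin5, which ties droplets to mitochondria in oxidative tissue, changed by -0.13 ± 0.10 (adjusted p = 0.404) with overlapping groups.

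Of the receptors, PPARδ is the form prominent in skeletal muscle. Ppard stood at 10.39, 10.91 and 10.72 in controls and at 10.60, 10.75 and 10.28 with insulin. The groups were mixed, and the change was -0.13 ± 0.16 (adjusted p = 0.631). Its probe sets went the other way: 10 of 11 were higher, up to 0.31 (10443339), and 10443333 alone was lower, at -0.27. That probe set was itself the median value on every array but insulin 3, and the direction turned to 0.15 with the mean and 0.26 with the brightest of the probe sets. Ppara, the form of liver and heart, was too dim to test, at 6.46 ± 0.12 and 6.65 ± 0.20. Its direction, too, turned with the mean (-0.067) or the brightest (-0.082) of its probe sets.

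In all, 7 pairs of relatives or partners were compared with the exact permutation test, and none could pass at this size. Adjusted over the 7, the p-values ran from 0.35 to 0.4. Besides those above, Acsl1 minus Acsl3 differed by 0.21 (exact p = 0.2), Ppara minus Ppard by 0.31 (exact p = 0.3), Plin2 minus Plin5 by 0.35 (exact p = 0.2) and Lpl minus Angptl4 by -0.26 (exact p = 0.4), all with overlap. The sign of Ppara minus Ppard turned with the mean, the brightest or centred probe sets, and that of Plin2 minus Plin5 with the brightest.

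Other genes of fatty acid metabolism were read from a list of 98, of which 94 were found and 77 tested. Of the 77, 9 were higher, 11 lower and 57 did not pass, with a median change of -0.02. Over all genes tested, 9.56% were higher and 6.35% lower, and the counts by role below stand beside these shares. The largest rise was in G0s2, an inhibitor of the droplet lipase ATGL, at 1.25 ± 0.12 (adjusted p = 0.000812), or 2.38-fold, from 10.05, 9.64 and 9.85 to 11.10, 10.94 and 11.24. Acaca, the acetyl-CoA carboxylase that makes malonyl-CoA for synthesis, rose by 0.85 ± 0.13 (adjusted p = 0.00562), from 8.87, 9.26 and 9.22 to 9.79, 9.92 and 10.19. In both genes the insulin arrays lay well above the controls.

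Pdk4, the pyruvate dehydrogenase kinase that favours fat over glucose as fuel, had values of 10.06, 10.29 and 10.24 in controls and 9.54, 9.57 and 9.52 with insulin. It fell by 0.65 ± 0.08 (adjusted p = 0.00192), to 63.6% of control, with the groups well apart. Among 17 regulators, 1 rose and 4 fell: the rise was Pparg (0.65, adjusted p = 0.00316), the receptor of fat cell formation, and the falls included Pdk4 and the orphan receptor Nr4a1 (-0.40, 0.0194). Nr4a1 missed the threshold without insulin 2 (0.0565) or insulin 3 (0.0747).

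Of 11 activation and binding genes, 2 rose, the synthetase Acsl5 (0.47, adjusted p = 0.00536) and the lipoprotein receptor Vldlr (0.79, adjusted p = 0.00410), and 1 fell. The brightest probe set of Vldlr alone gave -0.24. Of 5 thioesterases 2 rose, among them Acot7 (0.40, adjusted p = 0.00936). Of 13 other mitochondrial genes 2 rose, among them the thiolase Acat1 (0.50, adjusted p = 0.0101), and 2 fell, Acad12 (-0.42, adjusted p = 0.00881) and the branched-chain dehydrogenase Acadsb (-0.31, adjusted p = 0.0159). Acad12 is listed on the array under an older name, and its brightest probe set gave 0.03, its mean -0.17 (adjusted p = 0.0882). Acadsb missed the threshold without control 2 (0.0580), insulin 1 (0.0641) or insulin 2 (0.0560).

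Of 14 peroxisomal genes none rose and 2 fell, among them the oxidase Acox3 (-0.38, adjusted p = 0.0154), which missed the threshold without insulin 1 (0.0590) or insulin 2 (0.0669). Of 6 carnitine and malonyl-CoA genes 1 rose, Acaca, and 1 fell, and of 11 droplet and lipolysis genes 1 rose, G0s2, and 1 fell. Leaving out insulin 2 took the count of lower genes over the whole list from 11 to 2. It was 6 without control 2 and 4 without insulin 1 or insulin 3, and over all genes on the array the lower calls went from 908 to 383 without insulin 2. Array quality weights brought the count of higher genes in the list from 9 to 15, and that over all genes from 1366 to 2608.

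**Figure D4:**
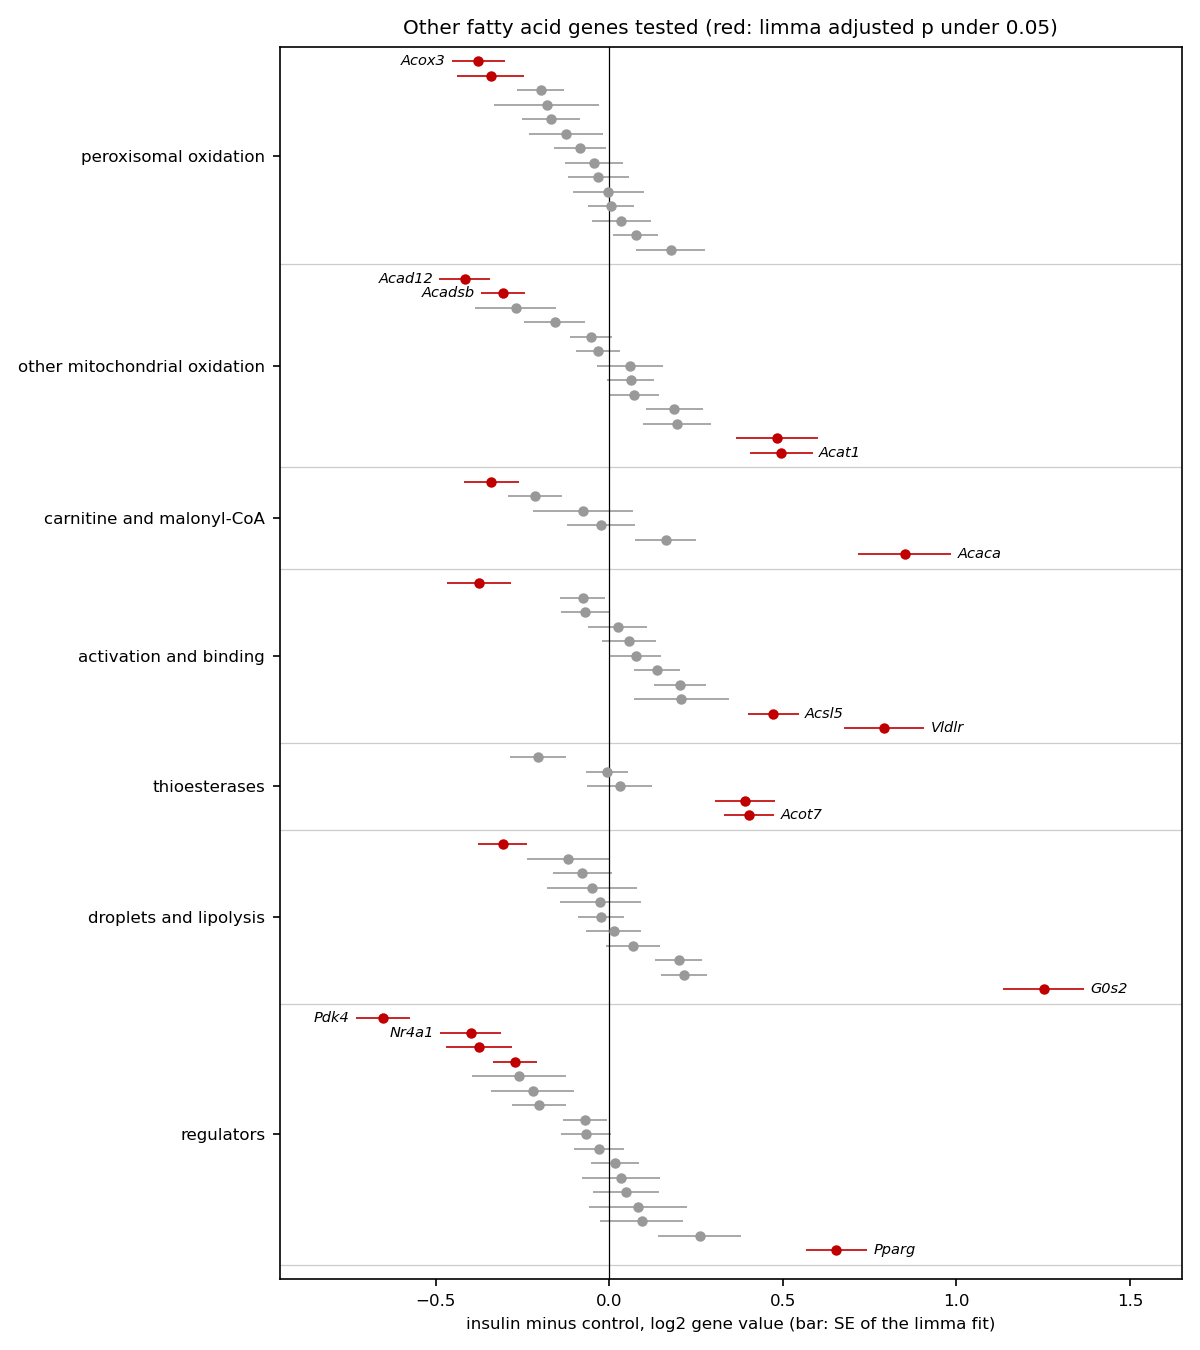
Insulin minus control on the log2 scale for the 77 other fatty acid genes tested, grouped by role, with bars for the SE of the limma fit, red for an adjusted p under 0.05 and names for the 12 with the smallest adjusted p. G0s2, Acaca and Vldlr stand furthest right and Pdk4 furthest left, while most points in every group lie near 0.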

How the data were processed

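RNA from 6 C2C12 samples was measured on oligonucleotide arrays, 3 per group. The values the authors deposited are log2 levels of probe sets from RMA, per the submitters' processing notes, without a version. The log base was taken as 2, since no source states it and the values run from 3.15 to 14.6. The array's genome build is not given in the sources used here. RMA equalizes arrays, so a change in total RNA would not show. No detection calls or scan batches were used; precision is limited by how few arrays there are. Of 241576 probe sets, 4475 with several symbols and 25004 with none were left out.

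The values were fitted with limma 3.58.1 (lmFit, eBayes, two-sided, R 4.3.3) over both groups without covariates, at gene and probe set level, with Benjamini-Hochberg adjustment over all features tested and a threshold of 0.05. Probe sets under 7.57, the 30th percentile, were not tested. Probe sets were set against the rest of their gene with diffSplice (3 or more per gene). SDs are over 3 samples. The functions were tested on simulated data. Members and lists were chosen with earlier results of these data known. Every member is named, and of other pathway genes up to 12 past the threshold by smallest adjusted p. For members past the threshold or with a differing probe set, the lowest and highest tested probe sets and the differing ones are named. Alternatives were a replicate block, median centring, no filter or the 50th percentile, array weights, mean or brightest probe set, older symbols, leaving out each array, and, chosen after seeing the data, centred probe sets and probe sets under the filter left out. The main fit did not pair samples by replicate number, and marker lists not described in the report are given in the closing section.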

Additional observations from a re-analysis of the deposited data

How the results depend on the processing

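Cd36, Cpt1a and Acot2 passed under all 15 alternatives. With only 2 probe sets, the change of Acot2 is the same by median, mean or centred probe sets. Taking its brightest probe set or leaving out its dim one gives the same 1 probe set, so these alternatives say little about it. Fabp3 and Ucp2 missed only with the brightest probe set, Slc27a1 without control 2, insulin 2 or insulin 3 and Angptl4 under 12 alternatives; the cause was not tested. Matching by older symbols kept 3 members higher and 4 lower. Samples with the same replicate number had deviations that correlated at 0.0246, 0.195 and -4e-04. Samples with different numbers correlated at -0.10 to 0.069, so the value for replicate 2 was the highest. Whether the numbers pair the samples was not tested. With the replicate block, 2 members were higher and 4 lower, 1 probe set was higher and 2 lower, and 6 differed from the rest of their gene. Without a filter more probe sets enter the adjustment, and 1 was higher and 4 lower. Array quality weights gave 10 members lower, 15 other pathway genes higher, 22 probe sets higher, 56 lower and 10 that differed. Over all genes, the weights moved higher calls from 1366 to 2608 and lower calls from 908 to 2399. Of all probe sets tested, 11.3% were then higher and 9.31% lower, and 5.38% differed from the rest of their gene. The brightest probe set left 5 other pathway genes lower. Leaving out 1 array, which leaves 5, gave 1 to 3 members higher, 1 to 4 probe sets higher, 0 to 13 lower, 1 to 7 that differed and 2 to 9 other pathway genes lower. The 0 came without control 2 and without each insulin array, where limma had 43 to 53 member probe sets lower at an unadjusted p under 0.05. The share of all probe sets at that unadjusted level is not given here, so these counts cannot be read as few or many. Over all genes, 26.7% were called with centred probe sets and 15.9% otherwise. Centring each array on its median moved the median of all genes to -0.02.

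The direction of the following members, named genes and pairs turned. With each array centred on its median it turned for Acad9 (-0.0081) and Etfdh (-0.013). Array quality weights turned it for Lpl (0.23), Cpt1b (0.026), Cpt2 (0.0077), Hadhb (-0.077) and Etfdh (-0.0020). The mean of the probe sets turned it for Lpl (0.042), Acot1 (0.0027), Acadvl (-0.072), Hadha (-0.052), Hadhb (-0.0028), Etfa (0.013), Etfb (0.0014), Etfdh (-0.034), Plin5 (0.021), Ppard (0.15), Ppara (-0.067) and Ppara minus Ppard (-0.22). The brightest probe set turned it for Lpl (0.078), Cpt2 (0.037), Acadvl (-0.0041), Hadhb (-0.11), Etfdh (-0.065), Plin5 (0.22), Ppard (0.26), Ppara (-0.082), Vldlr (-0.24), Acad12 (0.026), Ppara minus Ppard (-0.35) and Plin2 minus Plin5 (-0.19). Centred probe sets turned it for Lpl (0.063), Acadvl (-0.10), Hadha (-0.031), Etfa (0.012), Etfdh (-0.0033), Plin5 (0.025), Ppard (0.21), Ppara (-0.034) and Ppara minus Ppard (-0.24). Leaving out dim probe sets turned it for Plin5 (0.029). With 1 array left out, changes ran from -0.20 to 0.13 for Lpl, -0.027 to 0.12 for Acadvl, -0.10 to 0.14 for Hadhb, -0.025 to 0.036 for Etfdh, -0.081 to 0.052 for Acot1, -0.036 to 0.049 for Acad9, -0.015 to 0.0060 for Cpt2, -0.086 to 0.0079 for Etfa, -0.066 to 0.013 for Etfb and -0.27 to 0.0019 for Ppard. In each of these the cause was not tested.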

Other observations

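Where probe sets of a gene differ in brightness, the median of their levels can change from one probe set to another between arrays. With each probe set first centred on its own mean over the arrays, an alternative chosen after seeing the data, 4 members were higher and 6 lower. Ppard, the PPAR form prominent in muscle, then rose by 0.21 ± 0.05 (limma adjusted p = 0.0241), with centred values of -0.02, -0.11 and -0.19 in controls and 0.11, 0.09 and 0.09 with insulin. The droplet protein Plin2 rose by 0.14 ± 0.04 (adjusted p = 0.0470). Mlycd, the malonyl-CoA decarboxylase, changed by -0.24 ± 0.07 (adjusted p = 0.0410), and the short-chain dehydrogenase Acads by -0.21 ± 0.05 (adjusted p = 0.0115). In these 4 genes the centred values of the groups did not overlap. Angptl4 did not pass in this fit (adjusted p = 0.0762). The 4 members that fell in the main fit passed here too, with Cd36 at -0.501, Fabp3 at -0.465, Cpt1a at -0.458 and Ucp2 at -0.396. The falls of Cpt1a and Ucp2 were thus smaller than by gene value, and that of Cpt1a was no longer the largest. Over all 14291 genes, 3815 were called in this way against 2274 otherwise, 2106 in both, and 1832 genes (12.8%) changed sign, of which 6 were among the 2274.

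Of the marker lists for cells that a dish of this line should lack, the mean log2 level of 5 brown adipocyte genes ran from 7.36 to 7.56 in controls and from 7.39 to 7.49 with insulin. That of 6 endothelial genes ran from 6.34 to 6.47 and from 6.44 to 6.48, and that of 6 macrophage genes from 7.05 to 7.09 and from 7.00 to 7.10. Of these lists 5 genes were bright enough to test and limma called 0, with 1 at an unadjusted p under 0.05. In the brown adipocyte list Cox7a1 was far brighter than the rest, at 11.12 in controls and 10.98 with insulin. Its other genes had control means from 6.06 to 7.76, so Cox7a1 raised the mean of that list. The 6 fibroblast genes ran from 9.37 to 9.46 and from 9.20 to 9.27, and 1 of the 5 tested fell.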
